A study of Homo sapiens with 9 samples.

Results

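The PEA3 factors are ETV1, ETV4 and ETV5, the 3 closely related members of the ETS family of DNA-binding transcription factors. All 3 were taken by symbol from the 62700 genes of the count table. They and the gene lists below were chosen with earlier results of these data known, so their calls are not a blind comparison with all genes. Their RNA was followed in HEK293T cells, an established kidney line of embryonic origin that is easy to transfect, in 3 groups of 3 libraries. One group received an empty vector, another HA-tagged CIC::NUTM1, in which CIC exon 20 is joined to NUTM1 exon 6, and the last HA-tagged CIC::DUX4. All 9 cultures shared the cell line, the Fugene 6 reverse transfection of 300000 cells and the harvest at about 48 hours, and replicates were transfected on separate days. PolyA-selected RNA of whole cultures was sequenced, so the share of cells that took up a plasmid and the amount of RNA per cell cannot be told apart. The labels describe transient transfection and name no promoter. The transcripts of CIC, NUTM1 and DUX4 were not analysed here, so neither the labels nor the dose of fusion in each culture was checked.

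PEA3 factors bind DNA through an ETS domain and act mostly as activators. Their genes are classic outputs of receptor tyrosine kinase and ERK signalling, above all downstream of FGF receptors and, in the developing kidney, of the GDNF receptor RET. CIC (capicua) is an HMG-box repressor that holds these genes down at short octamer sites until ERK signalling relieves it, and in sarcomas CIC joined to DUX4 or NUTM1 is known to activate the same genes. The question of the comparisons was how far each fusion raised each of the 3 genes, and whether the 3 rose together.

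In GRCh38 and GENCODE 29 all 3 genes lie on the minus strand. ETV1 (ENSG00000006468) spans chr7:13891228-13991425, ETV4 (ENSG00000175832) chr17:43527844-43579620 and ETV5 (ENSG00000244405) chr3:186046308-186110318. Their annotated exons cover 9.616 kb, 3.607 kb and 5.802 kb, so the same CPM value stands for fewer transcripts of ETV1 than of ETV4 (CPM is a gene's counts scaled to a common library size, here after TMM normalisation). The promoter set used here held no window for ETV4 or ETV5, so these genes were not searched for sites. RefSeq promoter windows (GRCh38.p14, 250 bases before to 50 after a start site) were read for ETV1, which has 6. They were searched on both strands for 4 octamers described for CIC, TGAATGAA, TGAATGGA, TCAATGAA and TCAATGGA, which differ at 2 positions and cannot match at the same place. The only match was a single TGAATGGA, 125 to 118 bases before the start site at the upper end of the gene. The 250 bases before that start, chr7:13991426-13991675, are shown because they hold this octamer, given in capitals and read 5′ to 3′ on the minus strand.
ETV1 promoter: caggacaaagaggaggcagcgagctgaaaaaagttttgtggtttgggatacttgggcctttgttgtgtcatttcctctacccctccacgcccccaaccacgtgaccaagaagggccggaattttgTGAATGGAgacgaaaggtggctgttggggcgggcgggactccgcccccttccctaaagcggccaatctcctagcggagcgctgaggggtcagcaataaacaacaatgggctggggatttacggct
Of all 35116 windows of the same length, 1.03% held TGAATGGA and 3.77% held any of the 4 octamers. Counted by gene, 4.62% of 27305 genes had any of the 4 in a window. The 6 windows of ETV1 gave more room for a match than a single window. The match describes letters only, since binding was not measured.

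Total counts per library lay between 16970771 and 33655445. Of the 34765 genes with a count, 17576 passed a filter on low counts and were tested with the edgeR quasi-likelihood test, and a gene was called at a Benjamini-Hochberg adjusted p under 0.05 over all tested genes. Within each group the libraries differed beyond sampling noise (chi-square per degree of freedom 5.73 to 9.71), and none was treated as a duplicate. All 10 markers listed for HEK293 cells were detected, among them NEFM at 566 CPM, KRT18 at 62.4 CPM and PAX2 at 8.12 CPM in empty vector. Of these markers 3 were called higher and 2 lower with CIC::NUTM1, against 11.5% and 3.83% of all tested genes. With CIC::DUX4, 2 were called higher and 2 lower, against 6.96% and 1.27%. NEFM had log2 changes of -0.70 and -0.65 with CIC::NUTM1 and CIC::DUX4, NEFL -0.25 and -0.47 and EYA1 1.21 and 1.73. KRT8 (-0.03 and 1.31) was called with CIC::DUX4 only, and VIM (0.31 and 0.15) with CIC::NUTM1 only. Without 1 library, NEFM lost its call in 1 of 6 refits with CIC::NUTM1 and 3 with CIC::DUX4, NEFL in 1 with CIC::NUTM1 and KRT8 in 2 with CIC::DUX4. Their part in the results for the PEA3 genes was not tested. Of 11 markers of other cell types, HBB had 0 counts in every library and CD3E, CDH5 and PECAM1 had group means of at most 0.218 CPM. COL1A1 (33.5 CPM in empty vector) and COL3A1 (4.78) were present in every group, and PTPRC was higher with both fusions (0.0195 CPM in empty vector, 0.907 with CIC::NUTM1, 0.411 with CIC::DUX4). The PTPRC call with CIC::DUX4 (log2 change 3.83, edgeR adjusted p = 0.0242) was lost in 3 of 6 refits without 1 library, without replicate 1 or 3 of empty vector or replicate 1 of CIC::DUX4 (2.42, adjusted p = 0.422, without the last). With library totals in place of TMM, the share of called genes that were higher went from 75% to 60.7% for CIC::NUTM1 against empty vector and from 75.2% to 61.5% between the fusions.

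ETV4 and ETV5 were close to silent without a fusion. ETV4, the founding member of the group (also called PEA3), gave 7, 18 and 15 counts in the empty vector libraries of replicates 1, 2 and 3, which are 0.400, 0.526 and 0.600 CPM. ETV5 (also called ERM) gave 20, 29 and 11 counts, which are 1.14, 0.848 and 0.440 CPM. ETV4 was lowest in the library where ETV5 was highest, and ETV5 was lowest where ETV4 was highest. These baselines rest on few reads: the exact Poisson 95% interval for the 7 counts of ETV4 in replicate 1 is 2.81 to 14.4, and for the 11 counts of ETV5 in replicate 3 it is 5.49 to 19.7. These limits hold for counting error alone, as PCR copies of 1 molecule cannot be recognised without molecular identifiers.

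ETV1 (also called ER81) had the highest baseline of the 3. Its empty vector libraries held 80, 85 and 61 counts, or 4.57, 2.49 and 2.44 CPM. Replicate 1 stood above the other two, which were nearly equal. The lowest ETV1 library was above every empty vector library of ETV4 and ETV5. Per kb of exon, ETV1 was at 0.329 ± 0.127 CPM per kb, ETV4 at 0.141 ± 0.0281 and ETV5 at 0.140 ± 0.0608 (SD, n = 3). ETV4 and ETV5 did not differ beyond that spread. On this scale ETV1 ranked 14682 of the 17034 tested genes with a known length, ETV4 15887 and ETV5 15900, so 86.2%, 93.3% and 93.3% of these genes stood above them.

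With CIC::NUTM1 all 3 genes rose. ETV4 gave 254, 156 and 211 CPM in replicates 1, 2 and 3, ETV5 gave 311, 198 and 305 CPM, and ETV1 gave 71.6, 47.9 and 66.4 CPM. Replicate 2 was the lowest library for each of the 3 genes and replicate 1 the highest, and no CIC::NUTM1 library overlapped an empty vector library. The group means were 207 ± 49.5 CPM for ETV4, 271 ± 63.5 CPM for ETV5 and 62.0 ± 12.5 CPM for ETV1 (SD, n = 3).

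The increase over empty vector was 392-fold for ETV4, a log2 fold change of 8.62 ± 0.35 (SE; 95% interval 7.79 to 9.44; edgeR adjusted p = 1.60e-06). For ETV5 it was 343-fold, with a log2 fold change of 8.42 ± 0.37 (7.54 to 9.31; edgeR adjusted p = 6.16e-06). The increase of ETV1 was far smaller, at 20.4-fold and a log2 fold change of 4.35 ± 0.26 (3.77 to 4.93; edgeR adjusted p = 7.30e-07). By size of change, ETV4 and ETV5 ranked 25 and 30 among the tested genes and ETV1 ranked 237. All 3 members were called higher, against 11.5% of all tested genes, and all 3 had libraries that did not overlap, against 18.2%. The median log2 change of the members was 8.42 and that of all tested genes was -0.00087.

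CIC::DUX4 raised the same 3 genes. ETV4 gave 232, 165 and 182 CPM, ETV5 gave 297, 214 and 231 CPM, and ETV1 gave 42.7, 29.9 and 31.5 CPM in replicates 1, 2 and 3. Each gene was highest in replicate 1 and lowest in replicate 2, the same order at both ends as with CIC::NUTM1, and no library overlapped empty vector. The group means were 193 ± 34.999 CPM for ETV4, 247 ± 43.9 CPM for ETV5 and 34.7 ± 6.97 CPM for ETV1 (SD, n = 3).

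**Figure D1:**
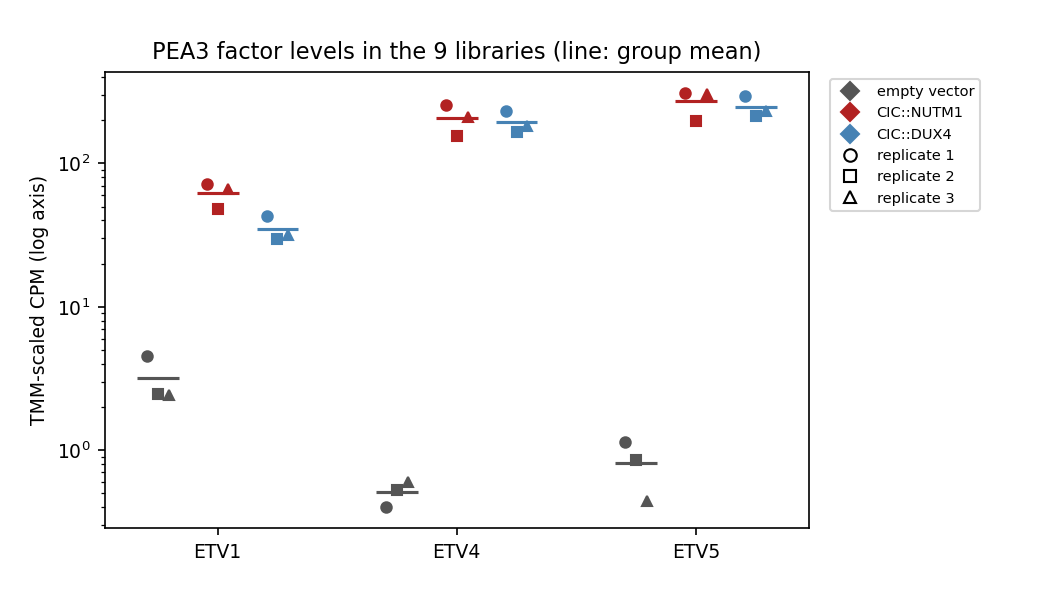
TMM-scaled CPM of ETV1, ETV4 and ETV5 (log axis) in each of the 9 libraries, with points for libraries and a line for each group mean. ETV4 and ETV5 stand at 0.400 to 1.14 CPM in empty vector and between 156 and 311 CPM with either fusion, while ETV1 starts at 2.44 to 4.57 CPM and reaches 29.9 to 71.6 CPM.

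ETV4 was 367-fold higher with CIC::DUX4 than with empty vector, a log2 fold change of 8.52 ± 0.35 (7.70 to 9.34; edgeR adjusted p = 3.04e-06). ETV5 was 313-fold higher, with 8.29 ± 0.37 on the log2 scale (7.41 to 9.17; edgeR adjusted p = 1.17e-05). ETV1 was 11.5-fold higher, with 3.53 ± 0.26 on the log2 scale (2.94 to 4.11; edgeR adjusted p = 7.48e-06). They ranked 28, 36 and 292 among tested genes by size of change. All 3 were called higher, against 6.96% of tested genes, and all 3 had libraries that did not overlap, against 14.8%. The median log2 change of the members was 8.29, beside -0.0015 for all tested genes. Both comparisons use the same empty vector libraries, so their fold changes share the error of the baseline. In every refit without 1 library and under every other setting tried, the 6 increases over empty vector kept their calls.

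The fusions differed for ETV1 and not detectably for the other two. The ETV1 level under CIC::NUTM1 was 1.77 times that under CIC::DUX4, a log2 difference of 0.83 ± 0.21 (SE; 95% interval 0.37 to 1.28; edgeR adjusted p = 0.04), and its lowest CIC::NUTM1 library (47.9 CPM) was above its highest CIC::DUX4 library (42.7 CPM). The call is narrow. It was lost without replicate 1 or 3 of CIC::NUTM1 (log2 difference 0.71 and 0.76, edgeR adjusted p = 0.105 and 0.173) and without replicate 2 or 3 of CIC::DUX4 (0.73 and 0.76, adjusted p = 0.14 and 0.175). It was also lost with DESeq2 (adjusted p = 0.0616), with edgeR on DESeq2 size factors (adjusted p = 0.0503) and with limma-trend on the authors' log2 values (adjusted p = 0.0594). The difference itself stayed between 0.71 and 1.01 in the refits without 1 library. The call held in 2 of these 6 refits and in 6 of 9 other settings, among them the fit with the replicate number as a block.

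For ETV4 the log2 difference between the fusions was 0.10 ± 0.19 (95% interval -0.36 to 0.55; edgeR adjusted p = 0.864), and its sign turned without replicate 1 of CIC::NUTM1 (-0.08) or replicate 2 of CIC::DUX4 (-0.01). For ETV5 it was 0.13 ± 0.21 (-0.38 to 0.64; edgeR adjusted p = 0.827). The libraries of the fusions overlapped for both genes. These intervals leave room for a difference of up to 0.55 and 0.64 on the log2 scale, so the data do not show that the fusions act alike on them. In this comparison 1 of 3 members was called higher, against 4.97% of tested genes, and 1 of 3 had libraries that did not overlap with CIC::NUTM1 on top, against 12.6%. The median log2 difference of the members was 0.13, beside -0.0053 for all tested genes.

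Because ETV1 started higher and rose less, the order of the 3 genes turned over. Summed per kb of exon, the PEA3 genes gave 0.610 ± 0.153 CPM per kb in empty vector, 111 ± 25.5 (110.6) with CIC::NUTM1 and 99.6 ± 17.98 with CIC::DUX4 (SD, n = 3), which is 181-fold and 163-fold over empty vector. ETV1 held 52.9 ± 7.04% of that sum in empty vector, with 60.7%, 46.9% and 51.2% in replicates 1, 2 and 3. Its share fell to 5.86 ± 0.197% with CIC::NUTM1 and 3.62 ± 0.0978% with CIC::DUX4. ETV4 held 24.7 ± 9.81%, 51.9 ± 2.04% and 53.7 ± 0.296% in the same order of groups, and ETV5 22.3 ± 6.13%, 42.3 ± 1.99% and 42.7 ± 0.246%. The most abundant PEA3 transcript per kb was therefore ETV1 without a fusion and ETV4 with either one. With the longest transcript as the length, the ETV1 shares were 52.5%, 5.76% and 3.55%.

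Ratios of counts inside a library do not depend on scaling between libraries. The log2 ratio of ETV4 to ETV1, with 0.5 added to each count, was -3.42, -2.21 and -1.99 in empty vector, 1.83, 1.70 and 1.67 with CIC::NUTM1, and 2.44, 2.46 and 2.53 with CIC::DUX4. Thus ETV1 had more reads than ETV4 in every empty vector library and fewer in every fusion library. Over the 6 fusion libraries against the 3 empty vector libraries, the ratio of ETV4 to ETV1 was higher by 4.64 on the log2 scale, or 25.01-fold (two-sided exact permutation p = 0.0238, the smallest this design can give; 0.0357 after Benjamini-Hochberg adjustment over 3 ratios). The ratio of ETV5 to ETV1 was higher by 4.45, or 21.9-fold (exact permutation p = 0.0238, adjusted 0.0357). With any library left out, neither design could pass after adjustment.

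**Figure D2:**
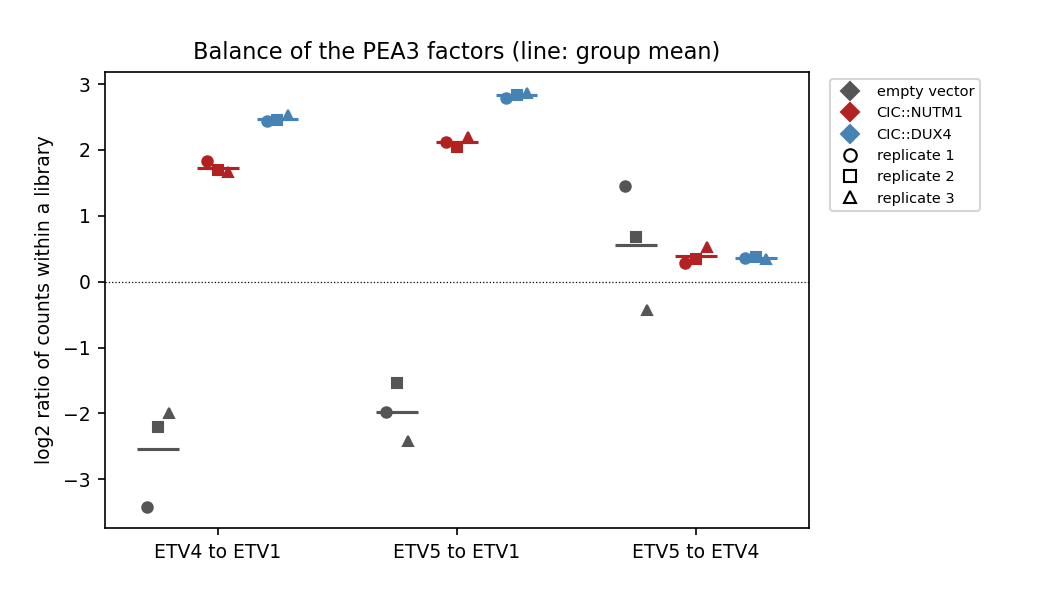
Log2 ratio of the counts of each pair of PEA3 genes within a library, with points for the 9 libraries and a line for each group mean. The ratios of ETV4 and ETV5 to ETV1 lie below 0 in every empty vector library and at 1.67 or more in every fusion library, while the ratio of ETV5 to ETV4 stays between -0.43 and 1.45.

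The ratios to ETV1 lay apart between the fusions. They use the same ETV1 counts as the direct comparison above, so they are not separate evidence for it. The log2 ratio of ETV4 to ETV1 averaged 1.73 ± 0.084 with CIC::NUTM1 and 2.48 ± 0.044 with CIC::DUX4, and that of ETV5 to ETV1 2.12 ± 0.075 and 2.83 ± 0.037 (SD, n = 3). The differences of -0.74 and -0.71 are many times the spread within a fusion, and the libraries did not overlap. With 3 libraries against 3 an exact permutation p cannot go below 0.1, and both reached that value (0.15 after adjustment).

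The ratio of ETV5 to ETV4 varied less between libraries with a fusion than in empty vector. It was 0.29, 0.35 and 0.53 on the log2 scale with CIC::NUTM1 (SD 0.124) and 0.35, 0.37 and 0.34 with CIC::DUX4 (SD 0.016). These SDs rest on 3 libraries each, and the part of counting error in them was not tested. In empty vector, on counts of 7 to 29, it was 1.45, 0.67 and -0.43. Neither comparison showed a difference: the fusions stood -0.19 from empty vector (exact permutation p = 0.524) and CIC::NUTM1 0.03 from CIC::DUX4 (exact permutation p = 0.9).

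ETV4 and ETV5 followed each other from library to library. Over the 6 fusion libraries the log2 CPM of ETV5 and ETV4 had a Pearson correlation of 0.960 (exact permutation p = 0.00833, adjusted 0.025 over 3 pairs) and a Spearman correlation of 0.943 (exact permutation p = 0.0167, adjusted 0.05). Without the 2 libraries farthest from the median, replicates 1 and 2 of CIC::NUTM1, Pearson's r was 0.945 (n = 4). The call did not hold throughout: with any 1 library left out r was 0.938 to 0.997 but the adjusted exact permutation p was 0.05 to 0.15, on deviations from the group means r was 0.960 (adjusted p = 0.0556), and with the replicate number as a block it was 0.913 (adjusted p = 0.333). The empty vector libraries were kept out because they form a separate cluster. For the same reason no pooled correlation is given for ETV1, whose libraries of the 2 fusions do not overlap. With 3 libraries per fusion there are too few to test within a fusion. Shared movement was not particular to ETV4 and ETV5: in each of the 6 fusion libraries ETV1 deviated from its group mean in the same direction as they did. On deviations from the group means, r was 0.977 for ETV1 and ETV4 and 0.983 for ETV1 and ETV5 (exact permutation, adjusted p = 0.0556 for each).

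The shared ups and downs were those of the other raised genes as well. In replicate 1 of CIC::NUTM1, ETV1, ETV4 and ETV5 deviated from their group means by 0.23, 0.33 and 0.23 on the log2 scale, and the median of 133 other strongly raised genes by 0.26. In replicate 2 the 3 genes were at -0.35, -0.38 and -0.42 and that median at -0.38. In replicate 3 they were at 0.12, 0.06 and 0.20 and the median at 0.12. Each member moved with the other raised genes in all 3 libraries, at a distance of at most 0.079 from their median.

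With CIC::DUX4 the picture was the same. The 3 genes were at 0.32, 0.28 and 0.28 in replicate 1 beside a median of 0.32 for 114 other raised genes, at -0.20, -0.21 and -0.19 in replicate 2 beside -0.17, and at -0.12, -0.07 and -0.08 in replicate 3 beside -0.13. The median deviation of all tested genes was between -0.0056 and 0.0095 in every one of these libraries. The comparison genes were those called higher with a log2 change of at least 2 and a mean of at least 100 counts. The part that fusion dose or transfection day had in these shared deviations was not tested.

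**Figure D3:**
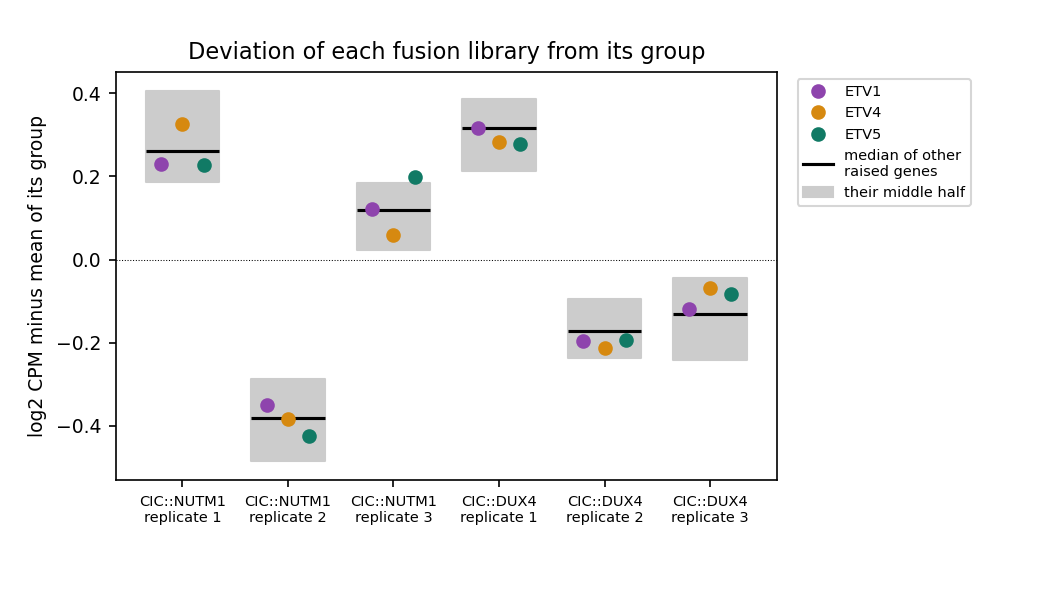
Deviation of log2 CPM from the group mean in each of the 6 fusion libraries, for ETV1, ETV4, ETV5 and the median of the other raised genes (bar: middle 50% of those genes). In each library the members sit beside that median, above 0 in replicate 1 and below 0 in replicate 2 of both fusions.

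Among the 28 ETS family genes, ETV4 and ETV5 moved from the lower part of the order to its top, and ETV1 to its middle. In empty vector ELK1 led at 24.6 CPM per kb, and ETV1, ETV4 and ETV5 stood at places 15, 16 and 17. With CIC::NUTM1, ETV4 came first at 57.4 ± 13.7 CPM per kb and ETV5 next at 46.8 ± 10.9. Their group spreads overlap, but ETV4 stood above ETV5 per kb within every library of either fusion. ELK1 was at 26.5 ± 1.10 and ETV1 took place 9 at 6.44 ± 1.30. With CIC::DUX4, ETV4 and ETV5 again led at 53.5 ± 9.70 and 42.6 ± 7.57, ELK1 followed at 27.1 ± 1.05, and ETV1 took place 12 at 3.61 ± 0.724 (SD, n = 3). Over all 17034 genes with a length, ETV4 ranked 732 with CIC::NUTM1 and 773 with CIC::DUX4, ETV5 958 and 1062, and ETV1 6596 and 8740. The members held the same places in the ETS order when the longest transcript was used as the length.

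Of the other 25 ETS genes, 16 were tested. With CIC::NUTM1, 3 were called higher, against 11.5% of all tested genes, and 0 lower: SPI1, the myeloid factor PU.1 (log2 change 4.51, from 0.144 to 3.44 CPM), ETS1 (1.73) and FLI1 (0.69). With CIC::DUX4, 4 were called higher, against 6.96%, and 0 lower: SPI1 (5.11), FLI1 (1.43), ETV6 (0.70) and ETS1 (0.53). ETS1 lost that call without replicate 1 of CIC::DUX4 (0.44, edgeR adjusted p = 0.0696), and ETV6 lost it there too (0.53, adjusted p = 0.127) and without replicate 3 of empty vector. Lower calls made up 3.83% and 1.27% of all tested genes in these comparisons. Between the fusions ETS1 was higher with CIC::NUTM1 (1.21) and FLI1 lower (-0.74), with 4.97% of tested genes called higher and 1.64% lower. The medians of the 16 genes were 0.11, 0.03 and -0.04 in the 3 comparisons.

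**Figure D4:**
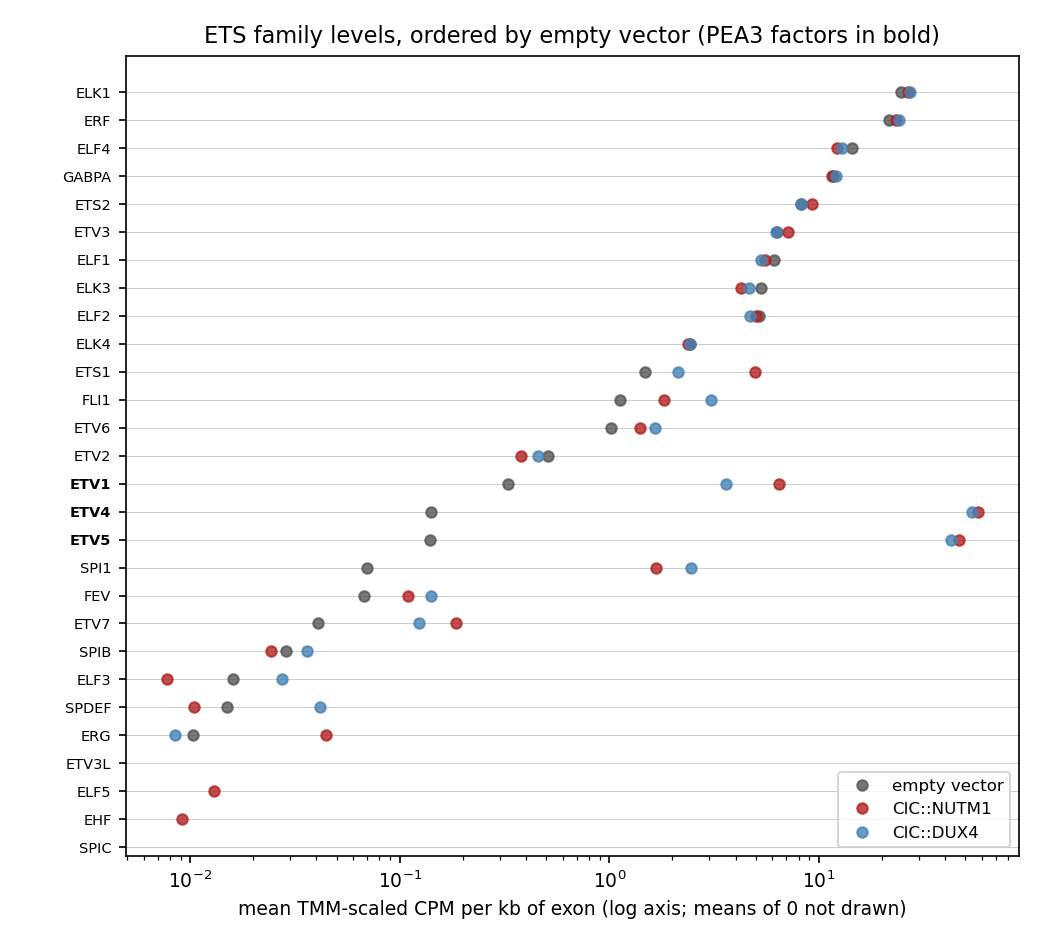
Mean TMM-scaled CPM per kb of exon (log axis) of the ETS family genes in each group, ordered by their level in empty vector, with PEA3 factors in bold. ETV4 and ETV5 move from 0.141 and 0.140 to between 42.6 and 57.4 CPM per kb and pass ELK1, which stays between 24.6 and 27.1.

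Genes upstream and downstream of the PEA3 factors were taken from lists. Among FGF and GDNF ligands and their receptors, 15 of 18 were tested. CIC::NUTM1 had 4 higher calls, against 11.5% of all tested genes, FGF18 (log2 change 3.02), FGF10 (2.08), FGFR3 (0.81) and the GDNF co-receptor GFRA1 (0.70). It had 1 lower, FGF9 (-0.93), against 3.83%. CIC::DUX4 had 3 higher calls, against 6.96%, FGF18 (3.13), GFRA1 (0.73) and FGFR3 (0.42). FGF10 and FGF9 lost their calls in 4 and 5 of 6 refits without 1 library (largest edgeR adjusted p 0.137 and 0.211), and FGFR3 lost its call with CIC::DUX4 without replicate 3 of that fusion (0.35, adjusted p = 0.071). The receptors RET, FGFR1, FGFR2 and FGFR4 were not called with either fusion. Between the fusions only FGFR3 (0.39) and FGF2 (-0.46) passed, against 4.97% of tested genes called higher and 1.64% lower. They lost their calls in 4 and 5 of 6 refits. The medians were 0.07, 0.06 and -0.03.

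A further list held genes usually switched on together with the PEA3 factors by FGF and ERK signalling, mostly its feedback inhibitors. Of these 13 genes, all tested, 11 were called higher with CIC::NUTM1 and 9 with CIC::DUX4, against 11.5% and 6.96% of all tested genes, and 0 were lower. DUSP6, an ERK phosphatase, went from 0.650 CPM to 57.2 and 31.0 CPM (log2 change 6.25 and 5.38). DUSP4, another phosphatase, changed by 4.19 and 4.30 and the Ras pathway inhibitor SPRED3 by 3.88 and 4.13. SPRY4, a Sprouty inhibitor, had 0 counts in all empty vector libraries and reached 97.3 ± 22.8 and 48.4 ± 13.7 CPM (SD, n = 3), at least 770-fold and 383-fold higher when 3 counts per library are taken as the floor (769.7 and 383.2). DUSP5 (log2 change 0.18 and 0.22) and IL17RD (-0.04 and -0.24) were not called with either fusion, nor were SPRY1 (-0.13) and FLRT3 (0.37) with CIC::DUX4.

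Between the fusions 4 of these genes were higher with CIC::NUTM1, FLRT3 (1.41), SPRY2 (0.95), CCND1 (0.67) and SPRY1 (0.49), and SPRY3 was lower (-0.97). Of all tested genes 4.97% were called higher and 1.64% lower in this comparison. Without 1 library that count of 4 ranged from 3 to 7, the 7 being reached without replicate 2 of CIC::NUTM1 and without replicate 1 of CIC::DUX4. CCND1 lost its call in 4 of 6 refits, as did SPRY1 with CIC::NUTM1 against empty vector. The list medians were 2.25, 2.15 and 0.49 on the log2 scale, also with SPRY4 set to its bound. ETV4 and ETV5 exceeded every gene of the list but SPRY4 in fitted log2 change with both fusions, and ETV1 stood between DUSP6 and DUSP4 with CIC::NUTM1 and below DUSP6, DUSP4 and SPRED3 with CIC::DUX4.

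**Figure D5:**
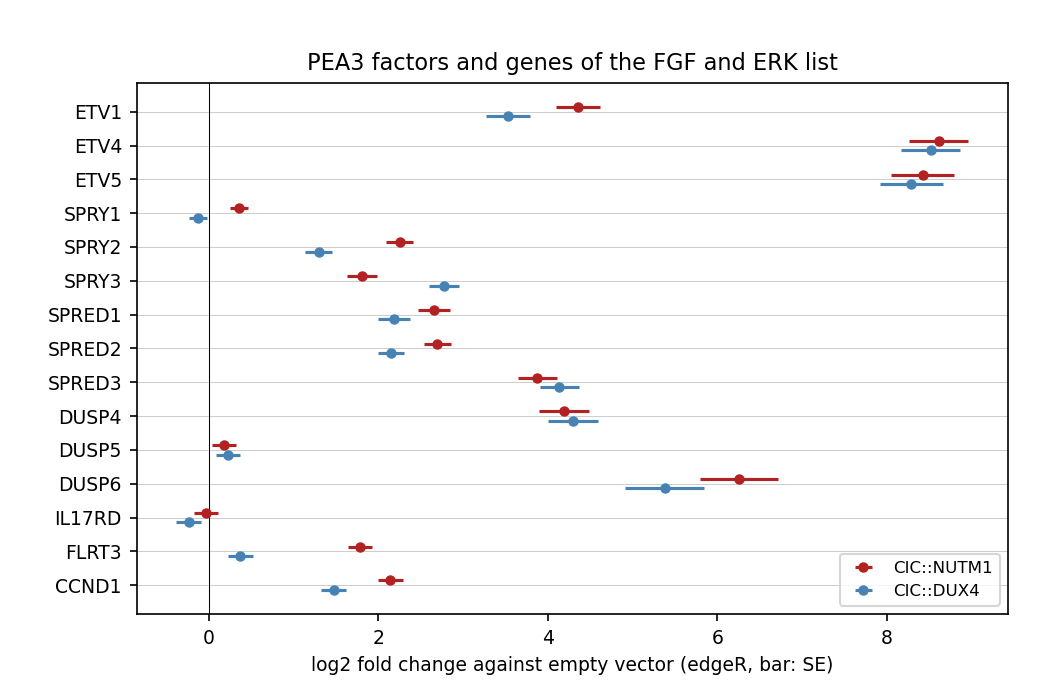
Log2 fold change against empty vector with each fusion (edgeR estimate, bar: SE) for the PEA3 factors and the FGF and ERK genes with counts in empty vector. ETV4 and ETV5 lie between 8.29 and 8.62 with both fusions, DUSP6 at 6.25 and 5.38, and DUSP5 and IL17RD near 0.

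Of 21 genes described as PEA3 targets, 16 were tested. CIC::NUTM1 had 5 higher calls, against 11.5% of all tested genes: SPP1, the secreted protein osteopontin (log2 change 7.89, from 0.121 to 32.2 CPM), the collagenase gene MMP13 (3.55), the HGF receptor gene MET (0.94), CCND3 (0.60) and VIM (0.31). CIC::DUX4 had 3, against 6.96%: SPP1 (4.10, to 2.29 CPM), MET (0.72) and CCND3 (0.45). MMP13 rested on means of 0.039 and 0.650 CPM and lost its call in 3 of 6 refits. Among genes not called with either fusion, CXCR4 and MYB had log2 changes of -0.46 and -0.46 with CIC::NUTM1 and -0.39 and -0.15 with CIC::DUX4. MMP14 went the other way, with 0.05 and 1.09 (edgeR adjusted p = 0.958 and 0.0777). Between the fusions only SPP1 was called, with 4.97% of all tested genes called higher. It was higher with CIC::NUTM1 by 3.79 on the log2 scale, or 13.8-fold (edgeR adjusted p = 7.75e-11). The medians were 0.18, 0.15 and 0.04.

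Of 17 genes for the turnover and cofactors of PEA3 proteins, 16 were tested. CIC::NUTM1 had 4 higher calls, against 11.5% of all tested genes, the CIC partner ATXN1 (1.46), TRIB1 (0.33), the ubiquitin ligase gene COP1 (0.32) and CREBBP (0.31). It had 1 lower, KAT2B (-0.36), against 3.83%. CIC::DUX4 had 4 higher calls, against 6.96%, ATXN1 (0.83), TRIB2 (0.64), COP1 (0.31) and TRIB1 (0.29). Of these, COP1 lost its call in 3 refits for CIC::NUTM1 and 4 for CIC::DUX4, and CREBBP, KAT2B and, with CIC::DUX4, TRIB1 in 3 each, of 6. Between the fusions ATXN1 (0.63) and MAPK3 (0.27) were higher with CIC::NUTM1, against 4.97% of tested genes, and TRIB2 lower (-0.48), against 1.64%. MAPK3 lost its call without replicate 1 or 2 of CIC::DUX4 (largest edgeR adjusted p 0.0883) and TRIB2 in 3 of 6 refits. The medians were 0.11, -0.03 and 0.06.

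The genes whose course over the 9 libraries was most like that of each member were ranked by the root mean square difference of log2 CPM, measured from the empty vector mean, over 12126 genes. ETV5 was the nearest gene to ETV4 and ETV4 the nearest to ETV5, at a distance of 0.427. The next gene for both was KRT20, an epithelial keratin (0.711 from ETV4 and 0.701 from ETV5), which had 0 counts in empty vector. After it came AP1M2 (0.895), SMIM24 (1.00) and SPRY4 (1.06) for ETV4, and SHC3 (0.956), SMIM24 (0.958) and SHC4 (0.983) for ETV5. Log levels of KRT20 and SPRY4 in empty vector are set by the prior count of 2. AP1M2, SMIM24, SHC3 and SHC4 had at most 8, 5, 8 and 9 counts in an empty vector library, so it also bears on their distances.

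ETV1 had other neighbours in this order. FOSL1, an AP-1 subunit and known ERK output, was nearest at 0.221, with 1.05 CPM in empty vector, 24.2 with CIC::NUTM1 and 13.02 with CIC::DUX4. OLFM1 (0.413), SPRED3 (0.462), EPHB3 (0.468) and VAT1L (0.479) followed. VAT1L had at most 6 counts in an empty vector library, so the prior count bears on its distance too. ETV4 was 3.70 and ETV5 3.57 from ETV1.

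Genes beside the PEA3 loci changed much less than the PEA3 genes. The 3 nearest annotated genes on each side and all overlapping ones made 22, of which 5 were tested, none of them near ETV1. All 5 were called higher with CIC::NUTM1, against 11.5% of all tested genes, and 0 with CIC::DUX4, against 6.96%. DGKG, which overlaps ETV5 on the same strand, was at 0.299 CPM in empty vector, 1.53 with CIC::NUTM1 and 0.569 with CIC::DUX4 (log2 change 2.28 with CIC::NUTM1, edgeR adjusted p = 0.005, and 0.87 with CIC::DUX4, adjusted p = 0.464). DHX8, which overlaps ETV4 on the other strand, was at 103, 134 and 106 CPM (0.38 with CIC::NUTM1, edgeR adjusted p = 0.000108, and 0.05 with CIC::DUX4, adjusted p = 0.783), and was the only one called between the fusions (0.34, adjusted p = 0.00131).

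MEOX1, 60.8 kb above ETV4, had a log2 change of 1.44 with CIC::NUTM1 and 1.33 with CIC::DUX4 (edgeR adjusted p = 0.0322 and 0.0791). Below ETV5, IGF2BP2 had 0.22 and 0.10 and TRA2B 0.17 and 0.16. MEOX1, IGF2BP2 and TRA2B lost their calls for CIC::NUTM1 in 4, 3 and 5 of 6 refits without 1 library. ETV5-AS1, which lies antisense to ETV5, had 0 counts in every library. The library kit keeps strand, but whether counting used it is not given in the sources used here, so reads shared by overlapping genes cannot be told apart.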

How the data were processed

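PolyA RNA of 9 HEK293T libraries was analysed, 3 in each of 3 groups taken from the sample labels. The authors deposited whole-number counts per Ensembl gene, and a table of log2 CPM for 15811 genes, whose values for the 3 members differed by at most 0.002 from those computed here. STAR 2.7.10b, R 4.2.2, edgeR 3.40.2 and GRCh38 are named in the submitters' processing notes. The counting program, its annotation and its use of strand are not given in the sources used here. Names were found for 62622 of 62700 IDs, and lengths and positions came from GENCODE 29.

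The edgeR quasi-likelihood test (edgeR 4.0.16, R 4.3.3) was run on the counts: filterByExpr on the groups, TMM scaling (factors 0.975 to 1.02), and a robust quasi-likelihood fit with 1 mean per group over all 9 libraries (biological coefficient of variation 10.1%). Each SE is the size of the log2 fold change over the square root of F. Ratios and correlations used exact permutation tests in scipy 1.17.1. Log2 CPM used a prior count of 2. Genes without counts in all empty vector libraries were set against a floor of 3 counts. Alternatives were DESeq2 1.42.0 in place of edgeR, limma-trend (limma 3.58.1) on the authors' log2 values, 3 other scalings, the replicate number as a block, fits restricted to the groups compared, each library left out, and the low-count filter either dropped or raised to 10 counts per library. The scripts were tested on simulated data, and figures were drawn with matplotlib 3.10.9.

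The members and gene lists were chosen with earlier results of these data known. Named genes are the members, their neighbours on the chromosome, the 5 most similar genes of each among those whose highest group mean was 100 counts or more, and up to 4 called genes per list and comparison with the largest changes, or all where 4 or fewer were called. The listed cell markers and VIM, CREBBP, DUSP5, IL17RD, SPRY1, FLRT3, CXCR4, MYB, MMP14, RET, FGFR1, FGFR2 and FGFR4 were named after their values were seen. The labels describe replicates transfected on separate days; with 3 libraries per group, p-values measure the spread between these cultures. The result for 1 listed cell marker is not reported here.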

Additional observations from a re-analysis of the deposited data

Results flagged for a closer look

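ETV1 was singled out because its response differed between the 2 fusions in a direct test: its log2 increase with CIC::NUTM1 exceeded that with CIC::DUX4 by 0.83 ± 0.21 (SE; edgeR adjusted p = 0.04; adjusted p from 5.18e-10 to 0.0616 over the other settings). The libraries stood at 71.6, 47.9 and 66.4 CPM with CIC::NUTM1 and 42.7, 29.9 and 31.5 CPM with CIC::DUX4, without overlap.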

How the results depend on the processing

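The 6 increases of the members over empty vector kept their direction and call under 9 other settings (8 for ETV4, which has 7 counts in 1 empty vector library and so no value when every library must hold 10) and in all refits without 1 library. The log2 difference of ETV1 between the fusions (0.83) lost its call with DESeq2 size factors (0.82, adjusted p = 0.0503), DESeq2 (0.83, 0.0616) and limma-trend (0.83, 0.0594); without 1 library it ranged from 0.71 to 1.01 (adjusted p 0.00273 to 0.175). That of ETV4 ranged from -0.077 to 0.27, turning negative without replicate 1 of CIC::NUTM1 (-0.077) or replicate 2 of CIC::DUX4 (-0.01). The cause was not tested. Genes called with CIC::DUX4 against empty vector numbered 1448, 956 when every library had to hold 10 counts (fewer genes tested) and 865 to 1487 without 1 library (865 without replicate 1 of CIC::DUX4). Between the fusions they numbered 1162, and 690 to 1264 without 1 library (690 without replicate 3 of CIC::NUTM1). Without 1 library the ratio of ETV4 to ETV1, fusions against empty vector, ranged from 4.202 to 4.92 and that of ETV5 to ETV1 from 4.23 to 4.67 (adjusted p 0.0536 to 0.107 for both, since fewer samples allow no smaller p). The ratio of ETV5 to ETV4 ranged from -0.69 to 0.25 against empty vector (0.25 without replicate 1 of empty vector) and from -0.037 to 0.082 between the fusions (-0.037 without replicate 3 of CIC::NUTM1). The correlation of ETV5 and ETV4 ranged from 0.938 to 0.997 (adjusted p 0.05 to 0.15), and was 0.960 on deviations from group means (adjusted p 0.0556). Baselines of 7 to 29 counts limit the fold changes of ETV4 and ETV5.

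Same-numbered libraries of different groups did not deviate together over all genes (9 correlations from -0.03 to 0.08, 0 of them over 0.1), and the numbers were not used as pairs. These correlations cover all tested genes and do not show the same for the raised genes alone. With CIC::NUTM1 and CIC::DUX4, the median deviation of the other raised genes was 0.26 and 0.32 in replicate 1. It was -0.38 and -0.17 in replicate 2, and 0.12 and -0.13 in replicate 3. With the replicate number as a block, the ETV1 difference was 0.84 (adjusted p = 1.56e-05), the ratios of ETV4 and ETV5 to ETV1 against empty vector stayed 4.64 and 4.45 with an adjusted p of 0.111, the smallest those 27 arrangements allow, and the correlation of ETV5 and ETV4 was 0.913 (adjusted p 0.333). The block left the call of every other edgeR result for the members unchanged.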
